A study of Sus scrofa with 24 samples.

Results

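Ovaries of sows at 1 year of age (Year 1) were compared with ovaries of sows entering puberty on postnatal day 120 (Puberty). The comparison rests on 6 mRNA libraries, 3 of Year 1 and 3 of Puberty, chosen by their stage labels from the 12 mRNA libraries and 24 libraries in all. Each library came from a different healthy Chenghua sow, a pig breed of Sichuan, and the groups were kept in a common environment on comparable nutrition. Ovaries were cut into fragments and snap-frozen, and polyadenylated RNA was captured on oligo(dT) beads. The remaining mRNA libraries, 3 each from day 105 of pregnancy (Pregnancy) and from postnatal day 3 (Day 3), entered the filter on low counts, the scaling and the estimate of spread, and no level or difference. The day of the oestrous cycle is not given in the sources used here. In such bulk tissue, fewer cells of a type and less RNA per cell cannot be told apart.

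A mammalian ovary holds a store of resting oocytes, each wrapped in somatic cells, and a wave of growing follicles. Granulosa cells surround the oocyte, answer to follicle-stimulating hormone and make oestrogen from androgens supplied by the outer theca layer. In cycling sows the ruptured follicle turns into a corpus luteum, a gland rich in vessels that makes progesterone from cholesterol. Oocytes carry germline genes of their own, among them those of the piRNA pathway, in which PIWI proteins loaded with small RNAs keep transposons silent.

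The 6 libraries held 15168556 to 15787019 counts each. Between 15788 and 16509 genes were detected in Year 1 libraries, against 16767 to 16934 in Puberty libraries. The TMM factors that set the libraries on 1 scale were 0.9387, 0.7518 and 0.7772 in Year 1, against 1.0077, 1.0588 and 1.0413 in Puberty. A log2 change from the fit therefore generally lies above the log2 ratio of TPM (length-scaled transcript abundance) for the same gene. Rises are larger in the fit than in TPM, and falls are smaller. Levels below are TPM and are given in the order of replicates 1, 2 and 3. Fold changes are fitted log2 values of Year 1 over Puberty with their standard error.

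The Year 1 libraries were unlike each other. Replicate 1 differed from Puberty replicate 1 by 0.60 (root mean square log2 difference over genes) and from Year 1 replicates 2 and 3 by 1.63 and 1.34. Replicates 2 and 3 differed from each other by 0.76. The median SD of a gene was 0.46 over the Year 1 libraries and 0.25 over the Puberty libraries (on the scale of log2 CPM, counts scaled to library size). Year 1 replicate 1 lay inside the range of the Puberty libraries for 5621 genes, replicate 2 for 2825 and replicate 3 for 3399. Results are therefore given for each library, and the counts for each gene list are given again without Year 1 replicate 1.

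**Figure D1:**
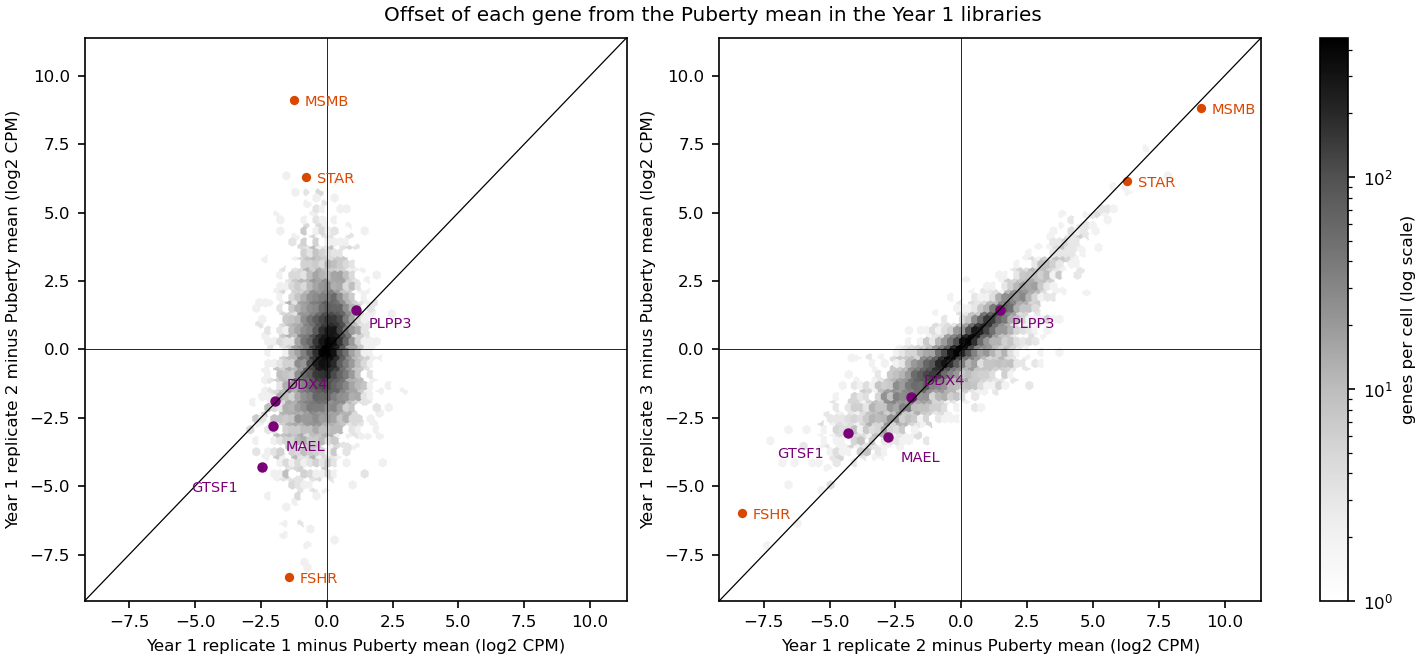
Each gene's level in Year 1 libraries minus the mean of the Puberty libraries (log2 CPM), replicate 2 against replicate 1 on the left and replicate 3 against replicate 2 on the right; shading gives the number of genes per cell on a log scale, purple points are the 4 genes past the test and orange points are MSMB, STAR and FSHR. The cloud lies closer to the diagonal on the right than on the left, where the 4 purple genes are displaced in the same direction in both replicates and MSMB and STAR lie far from the diagonal.

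Of 15699 genes tested, 1 rose and 3 fell in Year 1 relative to Puberty (edgeR quasi-likelihood test, Benjamini-Hochberg adjusted p = 0.0226 for each). These are 0.00637% and 0.0191% of the genes tested. An unadjusted p under 0.05 was reached by 4903 genes, or 31.2%. With only the 6 libraries of the comparison in the fit, the test called 0 genes, and 3610 of 14334 genes had an unadjusted p under 0.05. With DESeq2 on all 12 libraries 1889 genes were higher and 1370 lower. Without Year 1 replicate 1 the edgeR counts were 2970 higher and 3189 lower, and without Pregnancy replicate 3 they were 1721 and 954.

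The 3 genes that fell act in germ cells. DDX4 encodes the germ-cell RNA helicase VASA (chromosome 16, 34879701 to 34983701, Sscrofa11.1). Its level was 1.24, 1.01 and 1.05 TPM in Year 1, against 5.07, 5.71 and 6.79 TPM in Puberty. The groups did not overlap and the Year 1 libraries were nearly equal, replicate 1 included. The fitted change was -1.94 ± 0.22. It rests on 29, 25 and 29 counts in Year 1 and 120, 132 and 148 counts in Puberty.

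GTSF1, a zinc-finger partner of PIWI proteins (chromosome 5, 19639326 to 19661773), was at 0.70, 0.13 and 0.37 TPM in Year 1 and at 5.68, 4.75 and 4.01 TPM in Puberty. These levels rest on 31, 6 and 17 counts in Year 1 and 247, 204 and 158 counts in Puberty. Its change was -3.20 ± 0.38, the groups did not overlap, and Year 1 replicate 2 was the lowest library. MAEL, a piRNA pathway protein of germ-cell granules (chromosome 4, 83990266 to 84040465), was at 1.18, 0.51 and 0.38 TPM in Year 1, against 5.44, 5.73 and 7.50 TPM in Puberty. It changed by -2.75 ± 0.33, with Year 1 replicate 1 the highest of its group and still far below Puberty. Its levels rest on 18, 8 and 6 counts in Year 1 and 81, 84 and 101 counts in Puberty.

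PLPP3, a membrane phosphatase that breaks down lysophosphatidic acid and related lipids (chromosome 6, 155800838 to 155894919), was the gene that rose. It was at 137, 134 and 141 TPM in Year 1 and at 69.6, 78.2 and 74.3 TPM in Puberty. All Year 1 libraries stood close together and above every Puberty library, and the change was 1.35 ± 0.16. When 1 of the 12 libraries was left out in turn, DDX4 passed in 4 of 12 fits, MAEL in 3, and GTSF1 and PLPP3 in 2 each. Their fold changes ranged over those fits from -1.99 to -1.82 for DDX4, -3.21 to -2.48 for MAEL, -3.70 to -2.81 for GTSF1 and 1.31 to 1.46 for PLPP3.

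Because the spread at Year 1 was wide, genes were also counted by whether the libraries of the groups overlapped. All 3 Year 1 libraries lay above all 3 Puberty libraries for 2234 genes (14.2% of those tested) and below them for 2663 (17.0%). The balance depended on the scaling. It was 1740 above and 3166 below with upper-quartile scaling, and 660 above (4.2%) and 5198 below (33.1%) on the TPM scale. Upper-quartile scaling moved the median change of all genes to -0.17, from -0.03. Without Year 1 replicate 1 the counts were 4979 and 5600, or 31.7% and 35.7%. In the authors' deposited table, 1980 genes had a q-value under 0.05, 1293 higher and 687 lower. Of the 1963 among them tested here, 1663 did not overlap.

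The genes that did not overlap were divided into an even and an uneven kind by a set limit on their SD at Year 1. In 1673 genes above and 1555 below, the SD over the Year 1 libraries was at most 0.5 (log2 CPM). In 561 above and 1108 below it was larger. All 3 Year 1 libraries were at least 2-fold above the Puberty mean for 96 genes and at least 2-fold below it for 588. Year 1 replicate 1 was the only Year 1 library not above the Puberty range for 2745 genes, whereas replicate 2 was for 376 and replicate 3 for 156. It was the only one not below the Puberty range for 2937 genes, against 420 for replicate 2 and 313 for replicate 3.

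The 8 even genes above Puberty with the largest changes follow first. PTGES, which makes prostaglandin E2 in its last step, was at 1047, 985 and 1100.5 TPM in Year 1, against 376, 116 and 128 TPM in Puberty. The Year 1 libraries were level and Puberty replicate 1 came nearest to them (log2 change 2.76 ± 0.95, adjusted p = 0.0929). PTGES2, a second prostaglandin E synthase, was at 18.7, 26.8 and 24.4 TPM in Year 1 and at 13.7, 8.47 and 9.28 TPM in Puberty (1.62 ± 0.37, adjusted p = 0.0625). Neither passed the test.

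MIF, a cytokine, was at 1571, 2209 and 2700 TPM in Year 1, against 905, 744 and 684 TPM in Puberty (1.92 ± 0.36, adjusted p = 0.0624). MCAM, an adhesion molecule of vessel walls, was at 21.6, 28.5 and 22.6 TPM in Year 1 and at 13.8, 7.94 and 11.9 TPM in Puberty (1.58 ± 0.32, adjusted p = 0.0624). NR5A2, a nuclear receptor that drives steroidogenic genes in granulosa and luteal cells, was at 161, 179 and 192 TPM in Year 1. It was at 141, 21.1 and 93.0 TPM in Puberty, where its spread was as wide as its distance from Year 1 (1.47 ± 1.01, adjusted p = 0.326). The other genes of this kind were SPRY4, an inhibitor of growth factor signalling, POLR2L, a subunit of RNA polymerases, and CCDC134, with changes of 1.47 to 1.71 and adjusted p from 0.0691 to 0.139.

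Among even genes below Puberty were BMF and BCL2L11, which encode BH3-only proteins that promote apoptosis. BMF was at 8.93, 3.51 and 4.22 TPM in Year 1, against 14.57, 25.7 and 42.2 TPM in Puberty (-1.91 ± 0.50, adjusted p = 0.0653). BCL2L11 was at 5.33, 3.84 and 3.95 TPM in Year 1 and at 7.10, 14.3 and 40.1 TPM in Puberty (-1.75 ± 0.48, adjusted p = 0.0663). In both genes Puberty replicate 3 was the highest library.

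NR4A2, an immediate early nuclear receptor, was at 2.37, 1.23 and 1.31 TPM in Year 1 and at 3.14, 3.97 and 89.0 TPM in Puberty (-3.50 ± 1.01, adjusted p = 0.0703). The groups did not overlap, but the size of the change came from Puberty replicate 3, and it was -0.73 without that library. FAM83G was at 2.47, 1.10 and 2.17 TPM in Year 1, against 3.81, 6.66 and 26.02 TPM in Puberty, and its change of -2.21 ± 0.63 was -1.03 without the same library. That of BCL2L11 was -0.86. Early-response and heat shock genes, induced by signalling and by handling, were high as a list in the same library, with a list median of 1.39 above the Puberty mean, against -0.14, 0.02 and 0.23 in Year 1 and -0.67 and -0.52 in Puberty replicates 1 and 2. The list had 1 of 25 above and 3 below, with a median of -0.10, which was 0.70 without Puberty replicate 3. Without Year 1 replicate 1 it had 4 above and 5 below, with a median of -0.21. Its part in these results was not tested.

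MITF, a transcription factor, was at 9.06, 4.37 and 6.68 TPM in Year 1 and at 20.1, 38.8 and 45.8 TPM in Puberty (-1.96 ± 0.39, adjusted p = 0.0624). CC2D2B was at 0.87, 0.64 and 0.70 TPM in Year 1 and at 3.10, 4.90 and 3.67 TPM in Puberty (-1.99 ± 0.41, adjusted p = 0.0624). Among the 8 even genes below Puberty named here, CC2D2B had the smallest SD over the Year 1 libraries, 0.05. FANK1, known from germ cells of the testis, was at 1.65, 0.50 and 0.45 TPM in Year 1 and at 3.99, 3.29 and 5.12 TPM in Puberty, and CABLES1 had a change of -1.76 ± 0.58 (adjusted p = 0.0871).

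**Figure D2:**
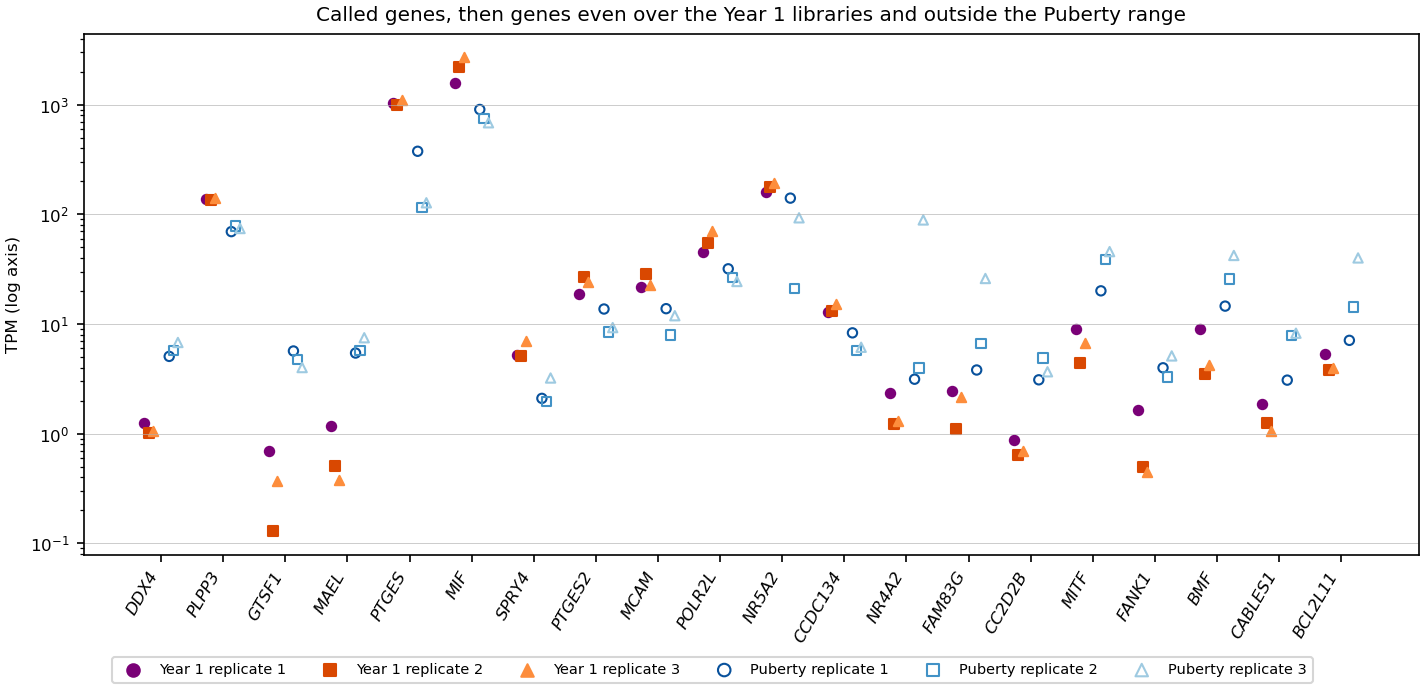
TPM (log axis) of the 4 genes past the test and of the 16 even genes with the largest changes, each point a library, Year 1 filled on the left and Puberty open on the right of each gene. The 16 even genes were chosen to have the Year 1 libraries on 1 side of the Puberty libraries on the TMM scale. In the 4 genes past the test the libraries lie apart on that scale too. NR4A2 and FAM83G have 1 Puberty library far above the others.

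The uneven genes with the largest changes had Year 1 replicates 2 and 3 far from Puberty and replicate 1 nearer to the Puberty range. OLFM2, a secreted olfactomedin, was at 24.5, 1754 and 1529 TPM in Year 1, against 19.7, 25.7 and 28.4 TPM in Puberty (6.04 ± 1.36, adjusted p = 0.0625). Year 1 replicate 1 of OLFM2 was above Puberty on the TMM scale only, and in TPM it lay inside the Puberty range. UCP2, a mitochondrial carrier, was at 8.96, 244 and 190 TPM in Year 1 and at 7.24, 8.47 and 8.38 TPM in Puberty (4.75 ± 1.02, adjusted p = 0.0624). SCARB1, the receptor that takes up cholesterol from high-density lipoprotein, was at 193, 3096 and 2268 TPM in Year 1 and at 165, 102 and 97.4 TPM in Puberty (4.47 ± 1.65, adjusted p = 0.106). In each of them 2 of the 3 Year 1 libraries carried nearly all of the difference.

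PTHLH, the parathyroid hormone-like hormone, was at 8.62, 112 and 211 TPM in Year 1 and at 2.03, 2.53 and 6.85 TPM in Puberty (5.30 ± 1.60, adjusted p = 0.0742). LOXL4, a lysyl oxidase that cross-links collagen, TM7SF2, a sterol reductase, and P2RY2, a nucleotide receptor, had changes of 4.57 to 4.95 with adjusted p from 0.0624 to 0.0645. P2RY2 was at 10.01, 68.6 and 48.9 TPM in Year 1 and at 4.86, 0.72 and 1.68 TPM in Puberty, so replicate 1 was more than 2-fold above the highest Puberty library.

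On the low side FSHR, the receptor for follicle-stimulating hormone on granulosa cells, was at 20.8, 0.07 and 0.66 TPM in Year 1, against 47.0, 80.6 and 70.5 TPM in Puberty (-2.97 ± 1.21, adjusted p = 0.130). All 3 Year 1 libraries were below Puberty, replicates 2 and 3 by far. CR1, a complement receptor, had an adjusted p of 0.0624. Its levels were 5.13, 1.12 and 1.55 TPM in Year 1 and 13.6, 25.3 and 43.0 TPM in Puberty (-3.02 ± 0.54). VNN1, a pantetheinase, was at 8.71, 0.69 and 0.82 TPM in Year 1 and at 13.7, 73.6 and 109 TPM in Puberty (-3.93 ± 1.52, adjusted p = 0.116). The rest were SCUBE3, HHLA2, PLPPR3, SPOCK1 and ACCSL, with changes of -3.57 to -2.94 and adjusted p from 0.0649 to 0.112.

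**Figure D3:**
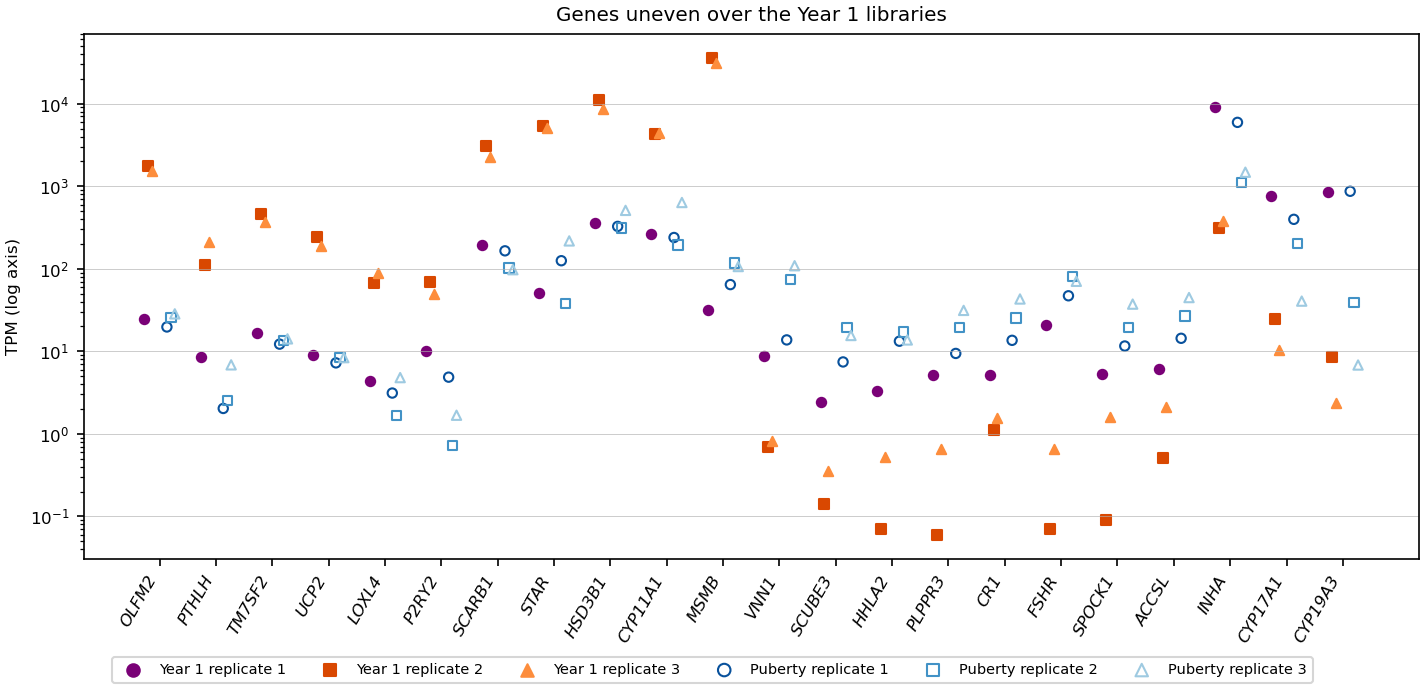
TPM (log axis) of uneven genes with the largest changes and of 7 further named genes (STAR, HSD3B1, CYP11A1, MSMB, INHA, CYP17A1, CYP19A3), each point a library, Year 1 filled on the left and Puberty open on the right. In most genes shown Year 1 replicate 1 lies nearer to the Puberty libraries than Year 1 replicates 2 and 3 do.

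Gene lists by role follow, each with the number of members that did not overlap, to be read against the 14.2% above and 17.0% below over all genes, and with the median change, to be read against -0.03. Without Year 1 replicate 1 the counts are to be read against 31.7% above and 35.7% below, and the medians against -0.07. Counts in TPM are to be read against 4.2% above and 33.1% below over all genes. Counts with upper-quartile scaling are to be read against 1740 above and 3166 below among the 15699 genes tested. List members outside the naming rule were chosen after their values were seen, to show the range of a list. Summed levels cover all members of a list with deposited levels, also those not tested. Of the list members, 3 fell (DDX4, GTSF1 and MAEL, all in the piRNA list, DDX4 in the oocyte list too), and no member of any other list passed the test.

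Germline genes were mostly low in Year 1. In the piRNA pathway list 0 of 19 tested members had a positive change, 15 were below Puberty in all Year 1 libraries and 0 above, and the median change was -2.37. Per library, the list median relative to the Puberty mean was -1.68, -3.37 and -2.57 in Year 1, against -0.10, 0.06 and -0.02 in Puberty. Year 1 replicate 1 was thus the nearest to Puberty but well below it: it was below the Puberty range for 16 of the 19 members. Without it 18 members were below and 0 above, and the list median was -3.68.

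Within the pathway, PIWIL1, a PIWI protein, was at 0.17, 0 and 0.08 TPM in Year 1, against 0.96, 0.74 and 0.68 TPM in Puberty. MOV10L1, the helicase that feeds precursors into the pathway, was at 0.07, 0.02 and 0.07 TPM in Year 1 and at 0.79, 1.36 and 0.53 TPM in Puberty (-3.58 ± 0.58, adjusted p = 0.0624). PLD6, the mitochondrial nuclease of piRNA processing, was at 1.16, 0 and 0.17 TPM in Year 1 and at 4.63, 5.24 and 5.90 TPM in Puberty (-3.14 ± 0.74, adjusted p = 0.0625). TDRD7, also expressed outside the germline, differed little, with a change of -0.07 ± 0.22 and overlapping groups. The 4 members that overlapped were TDRD7, PIWIL4, TDRD12 and HENMT1.

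In the oocyte list 21 of 27 tested members were below Puberty in all Year 1 libraries and 1 was above, with a median change of -2.33. Without Year 1 replicate 1, 22 were below and 2 above, and the median was -4.01. The library medians were -1.07, -4.12 and -2.58 in Year 1, against -0.23, 0.19 and 0.11 in Puberty. In Year 1 replicate 2, 17 of the 27 members had a count of 0. In Year 1 replicate 3 it was 3, and in Year 1 replicate 1 and the Puberty libraries it was 0.

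GDF9, the growth factor that oocytes send to granulosa cells, was at 18.3, 7.15 and 11.07 TPM in Year 1, against 34.2, 40.8 and 41.8 TPM in Puberty (-1.28 ± 0.34, adjusted p = 0.0657). FIGLA, a transcription factor of resting and early growing oocytes, was at 0.33, 0 and 0.46 TPM in Year 1 and at 6.34, 4.53 and 7.11 TPM in Puberty (-3.97 ± 0.76, adjusted p = 0.0624). All 3 Year 1 libraries of FIGLA were near 0, at 2, 0 and 3 counts in Year 1 against 39, 26 and 38 counts in Puberty. ZP3, a protein of the egg coat, had another pattern: 24.02, 0 and 4.69 TPM in Year 1 and 52.2, 76.1 and 65.5 TPM in Puberty, with replicate 1 nearest to Puberty.

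BMP15, a partner of GDF9, was at 9.38, 0 and 1.49 TPM in Year 1 and at 15.3, 34.6 and 39.4 TPM in Puberty, graded in the same way as ZP3. The list member above Puberty was KIT, a receptor also found on theca and mast cells, at 19.0, 45.4 and 35.8 TPM in Year 1 and 16.23, 10.6 and 15.8 TPM in Puberty. SOHLH1, known as a germ-cell transcription factor, went with Year 1 replicates 2 and 3, at 0.13, 15.7 and 24.6 TPM in Year 1 against 0.83, 0.78 and 2.33 TPM in Puberty.

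In the meiosis list 8 of 20 tested members were below and 0 above, and the median change was -0.98 (without Year 1 replicate 1, 14 below, 1 above and a median of -1.27). SYCP3, of the synaptonemal complex, was at 0.62, 0 and 0.81 TPM in Year 1 and at 3.80, 2.90 and 3.28 TPM in Puberty. SMC1B, a meiotic cohesin, was at 0.46, 0 and 0.15 TPM in Year 1 and at 1.4, 1.61 and 1.62 TPM in Puberty (-2.58 ± 0.77, adjusted p = 0.0732). Levels in this list were low in all 6 libraries, apart from MEIOB at 12.3 to 30.6 TPM in Year 1 and 24.3 to 29.7 TPM in Puberty, whose groups overlapped.

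**Figure D4:**
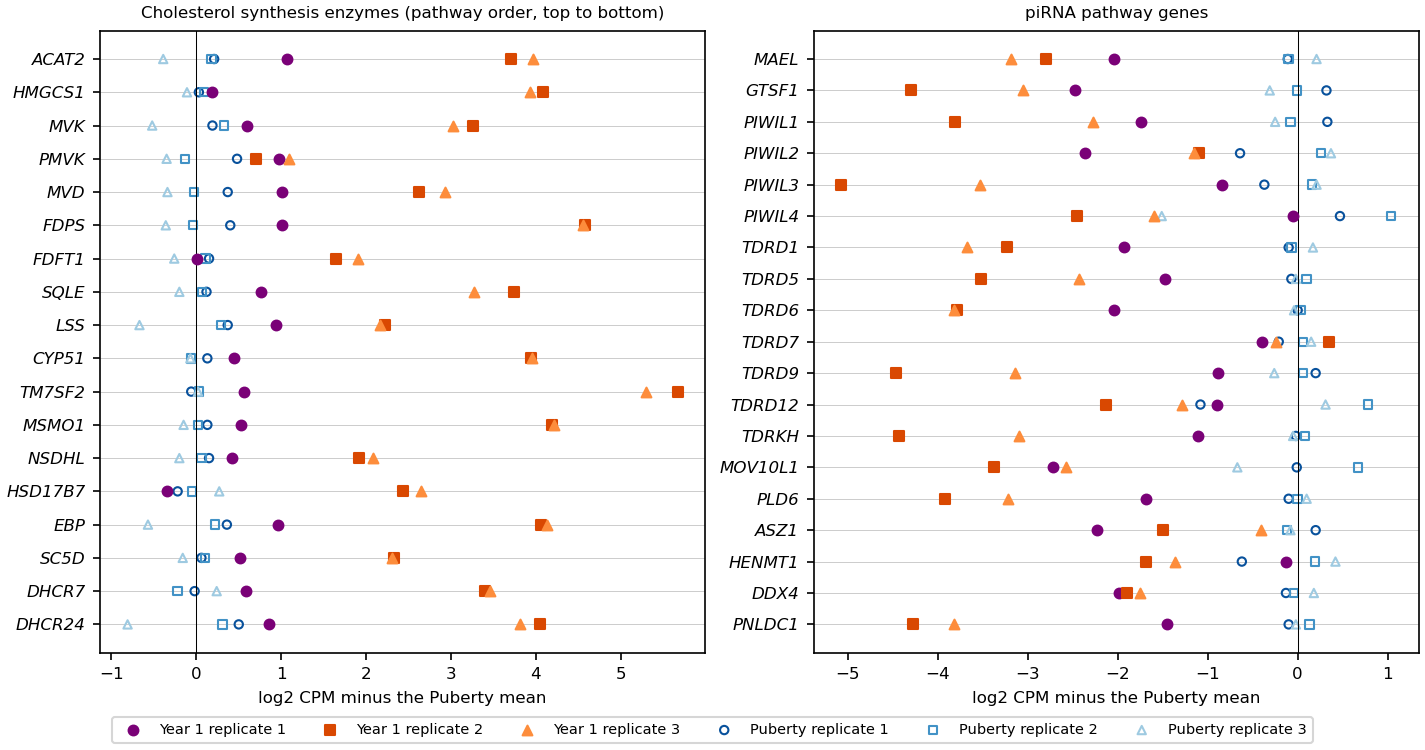
Level of each gene minus the mean of the Puberty libraries (log2 CPM) in every library, Year 1 filled and Puberty open, for enzymes of cholesterol synthesis in pathway order (left) and the 19 piRNA pathway genes tested (right). Cholesterol enzymes other than PMVK lie far above 0 in Year 1 replicates 2 and 3. In replicate 1 the enzymes lie between 0.01 (FDFT1) and 1.07 (ACAT2), but for HSD17B7, which lies below 0. Most piRNA genes lie below -1 in all Year 1 libraries.

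Cholesterol synthesis had the highest list median. All 24 members had a positive change, 20 were above Puberty in all Year 1 libraries and 0 below, and the median change was 2.79. It was 3.28 without Year 1 replicate 1, with 24 above and 0 below. The library medians were 0.60, 3.33 and 3.15 in Year 1, against 0.17, 0.03 and -0.21 in Puberty. Replicate 1 was above the Puberty range for 20 of the 24 members on the TMM scale. On the TPM scale 17 members were above Puberty in all Year 1 libraries.

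The genes ran along the whole pathway. FDPS, which makes farnesyl diphosphate, was at 127, 1180 and 1242 TPM in Year 1 and at 93.2, 72.9 and 60.03 TPM in Puberty (4.02 ± 1.15, adjusted p = 0.0699). DHCR7, at the last step, was at 41.4, 227 and 249.9 TPM in Year 1 and at 30.3, 27.8 and 39.9 TPM in Puberty (2.94 ± 0.69, adjusted p = 0.0626). For FDPS and DHCR7 replicate 1 lay above Puberty in TPM too.

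ACAT2, which opens the pathway, was at 48.1, 234 and 295 TPM in Year 1 and at 29.7, 30.5 and 21.3 TPM in Puberty (3.34 ± 0.72, adjusted p = 0.0624). SREBF2, the transcription factor that switches the pathway on, was at 88.7, 102 and 97.8 TPM in Year 1 and at 75.9, 57.9 and 45.8 TPM in Puberty (1.13 ± 0.29, adjusted p = 0.0651), and was even over the Year 1 libraries. Its escort protein SCAP was at 99.4, 304 and 301 TPM in Year 1, against 87.2, 70.9 and 67.2 TPM in Puberty. PMVK, a kinase early in the pathway, differed least among the enzymes in the plot, at 30.6, 20.1 and 27.3 TPM in Year 1 and 24.6, 16.6 and 15.3 TPM in Puberty (0.90 ± 0.40, adjusted p = 0.159).

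Genes of cholesterol uptake and storage were mixed, with 3 of 20 above, 5 below and a median of 0.42 (without Year 1 replicate 1, 9 above, 5 below and 0.43). LIPE, the hormone-sensitive lipase that frees stored cholesterol, was at 8.73, 15.9 and 17.0 TPM in Year 1, against 5.08, 4.89 and 5.27 TPM in Puberty (1.93 ± 0.30, adjusted p = 0.0624). SOAT1, which esterifies cholesterol for storage, was above too, at 16, 32.5 and 27.2 TPM in Year 1 and 13.3, 12.6 and 13.2 TPM in Puberty. The cholesterol exporters ABCG1 and ABCA1 were below. ABCG1 was at 2.80, 2.97 and 3.62 TPM in Year 1 and at 5.09, 9.77 and 18.2 TPM in Puberty (-1.32 ± 0.38, adjusted p = 0.0703).

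Of 21 tested members of the steroid synthesis list 5 were above and 0 below, and the median change was 0.82. The counts were 3 and 0 with upper-quartile scaling and 2 and 0 in TPM. Without Year 1 replicate 1, 12 were above and 6 below, with a median of 0.79. CYP11A1, which makes pregnenolone, was at 263, 4244 and 4439 TPM in Year 1, against 239, 194 and 635 TPM in Puberty (3.63 ± 1.46, adjusted p = 0.124). Its electron donor FDX1 did not overlap, at 549.5, 1606 and 1324 TPM in Year 1 and 455, 258 and 344 TPM in Puberty. STAR and HSD3B1 had changes of 5.35 ± 2.28 and 4.68 ± 1.66 (adjusted p = 0.141 and 0.0983) and also overlapped. In both genes, as in CYP11A1, Year 1 replicates 2 and 3 were the highest libraries.

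CYB5A, a cytochrome that assists steroid enzymes, was at 274, 3337 and 2476 TPM in Year 1 and at 347, 180 and 303 TPM in Puberty (3.41 ± 0.85, adjusted p = 0.0644). CYP17A1 and HSD17B1 were low in the same Year 1 libraries. CYP17A1, the androgen-forming enzyme of theca, was at 764, 24.8 and 10.5 TPM in Year 1, against 397, 201 and 40.5 TPM in Puberty. HSD17B1, which makes oestradiol in granulosa cells, was at 2168, 4.4 and 7.6 TPM in Year 1 and at 1165, 430 and 151 TPM in Puberty. For both genes Year 1 replicate 1 was the highest of the 6 libraries and Year 1 replicates 2 and 3 were the lowest.

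The fitted change of CYP17A1 was 0.53 ± 1.25 (adjusted p = 0.789), and without Year 1 replicate 1 it was -3.05. CYP19A3, an aromatase copy, was at 858, 8.64 and 2.38 TPM in Year 1 and at 868, 38.9 and 6.82 TPM in Puberty (0.19 ± 1.81, adjusted p = 0.950), and -5.28 without that library. Pig aromatase genes are near-identical copies, so the split of reads among them is uncertain. Both groups of CYP19A3 hold a high library, replicate 1 in each.

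In the granulosa list 1 of 22 tested members was above and 5 below, with library medians of 0.13, -2.47 and -2.16 in Year 1, against 0.38, -0.13 and -0.34 in Puberty. The list median was -0.56. It was -2.57 without Year 1 replicate 1, with 2 members above and 17 below. The summed level of the list was 21659, 1344 and 1634 TPM in Year 1 and 15904, 5241 and 4399 TPM in Puberty. INHA, the inhibin alpha subunit, was at 9079, 311 and 382 TPM in Year 1 and at 5935, 1113 and 1478 TPM in Puberty (0.42 ± 1.04, adjusted p = 0.802), and its change was -2.51 without Year 1 replicate 1.

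AMH, the hormone of small growing follicles, was below in all Year 1 libraries, at 26.5, 0.37 and 1.72 TPM in Year 1 and 44.6, 84.4 and 53.8 TPM in Puberty (-2.41 ± 1.09, adjusted p = 0.159). GJA1, the gap junction protein that couples granulosa cells, was at 391, 65.8 and 82.9 TPM in Year 1 and at 705, 810.1 and 492 TPM in Puberty (-1.58 ± 0.56, adjusted p = 0.0992). GATM, a creatine synthesis enzyme, was at 7.07, 1.86 and 3.09 TPM in Year 1 and at 8.09, 15.7 and 44.3 TPM in Puberty. AMH and FSHR were thus below Puberty in Year 1 replicate 1 as well, whereas INHA was above every Puberty library there.

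In the theca list 2 of 13 were above and 3 below (0 and 4 in TPM), and the list median was 0.23. It was -0.74 without Year 1 replicate 1, with 5 above and 7 below. The summed level, 5104, 20740 and 18350 TPM in Year 1 against 4101, 3121 and 2696 TPM in Puberty, holds STAR, HSD3B1 and CYP11A1, which luteal cells also express. PTCH1, the hedgehog receptor, was at 15.9, 2.90 and 3.10 TPM in Year 1, against 38.6, 67.3 and 26.7 TPM in Puberty (-2.29 ± 0.61, adjusted p = 0.0657). HHIP, a hedgehog inhibitor, was at 1.82, 0.05 and 0.04 TPM in Year 1 and at 5.94, 12.3 and 4.18 TPM in Puberty (-3.31 ± 1.07, adjusted p = 0.0822). INSL3, a theca hormone, was at 3386, 2.19 and 14.3 TPM in Year 1 and at 2643, 1997 and 989 TPM in Puberty.

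In the luteal list 6 of 19 tested members were above and 2 below (4 and 3 in TPM), with a median of 2.20. It was 2.62 without Year 1 replicate 1, with 14 above and 4 below. The library medians were 0.12, 2.78 and 2.55 in Year 1 and 0.00, -0.21 and 0.05 in Puberty. PGRMC1, a progesterone receptor membrane component, was at 227, 1037 and 1012 TPM in Year 1, against 229, 243 and 266 TPM in Puberty (2.15 ± 0.70, adjusted p = 0.0838). TIMP1, an inhibitor of matrix proteases, was at 384, 27278 and 17951 TPM in Year 1 and at 373, 336 and 2933 TPM in Puberty (4.23 ± 1.28, adjusted p = 0.0749). PTGFR, the receptor through which prostaglandin F2alpha ends the luteal phase, was at 4.75, 151 and 119 TPM in Year 1 and at 6.32, 12.3 and 46.7 TPM in Puberty. Other members went the opposite way. GJA1, given above with the granulosa list, belongs to this list too and was below Puberty (-1.58 ± 0.56). PRLR, the prolactin receptor, lay at -4.26, -2.15 and -2.20 relative to the Puberty mean (log2 CPM) in Year 1, lowest in replicate 1.

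LHCGR, the receptor for luteinizing hormone, was at 56.9, 12.3 and 11.0 TPM in Year 1 and at 93.8, 42.8 and 22.3 TPM in Puberty (-0.71 ± 0.78, adjusted p = 0.546). Of 6 libraries it was highest in Puberty replicate 1 and lowest in Year 1 replicates 2 and 3. The secreted protein MSMB had the largest fitted change of the fixed genes, 8.37 ± 1.75 (adjusted p = 0.0624), yet Year 1 replicate 1 was below every Puberty library, at 31.7 TPM against 64.3, 117 and 106 TPM. RLN2, which encodes relaxin, was at 1.10, 293 and 265 TPM in Year 1 and at 8.00, 74.9 and 2.71 TPM in Puberty (3.24 ± 2.93, adjusted p = 0.457).

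**Figure D5:**
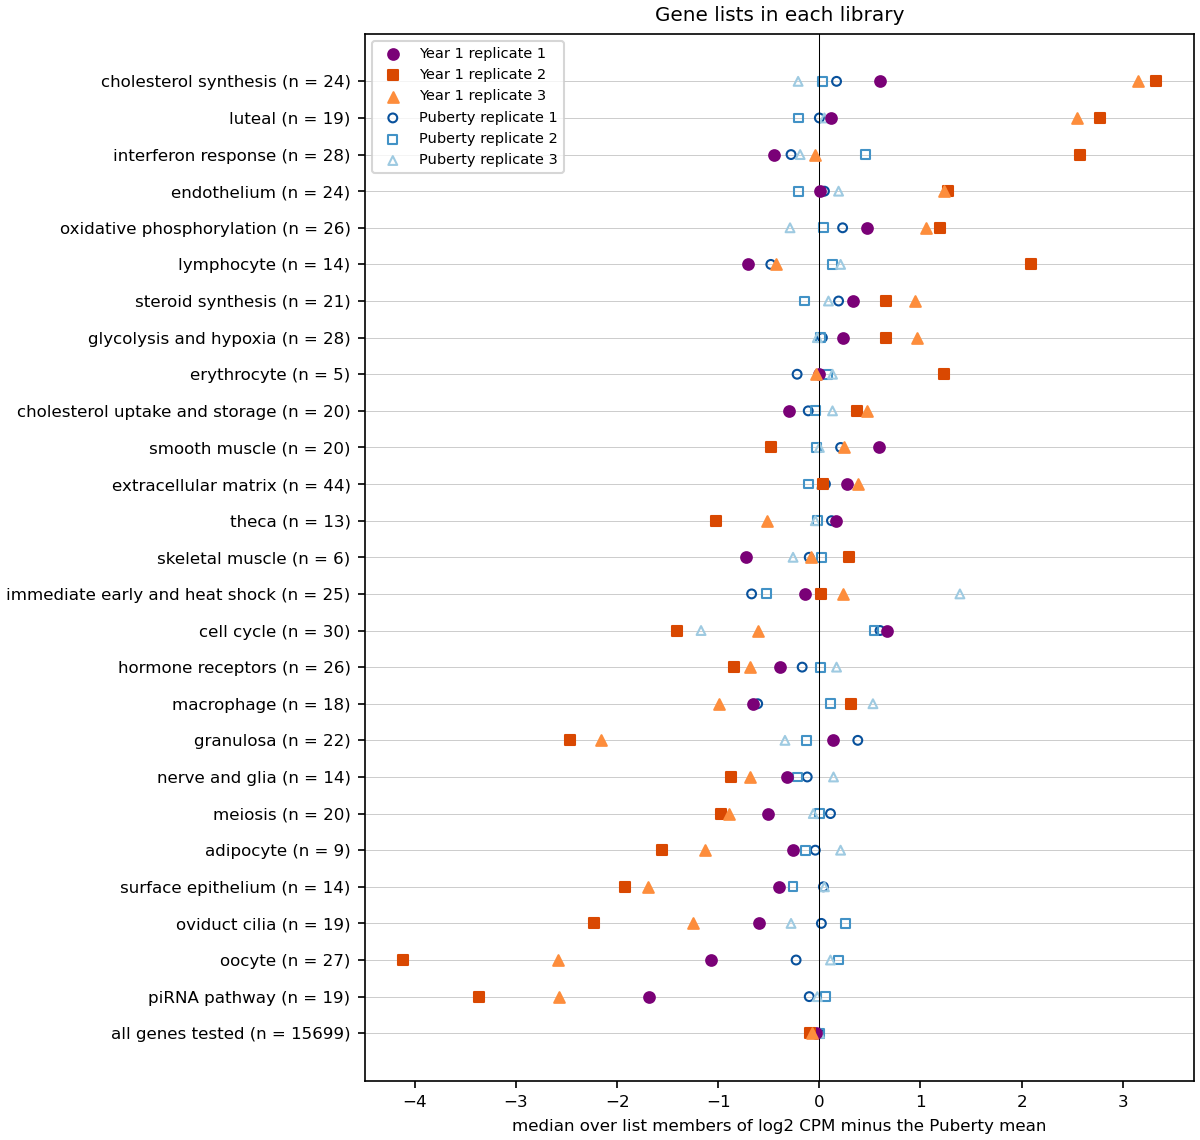
Median over the tested members of each gene list of the level minus the Puberty mean (log2 CPM), 1 point per library, Year 1 filled and Puberty open, lists sorted by their median fitted change with all genes tested at the bottom. All Year 1 libraries lie on 1 side of Puberty for several lists, among them oxidative phosphorylation, cholesterol synthesis, the piRNA pathway and oocyte genes. Year 1 replicate 1 lies apart from the other Year 1 libraries for the luteal, granulosa and endothelium lists, among others.

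All 26 members of the oxidative phosphorylation list had a positive change, 24 were above Puberty in all Year 1 libraries and 0 below, and the median change was 0.94. It was 1.12 without Year 1 replicate 1, with 25 above and 0 below. The library medians were 0.47, 1.19 and 1.05 in Year 1, against 0.23, 0.04 and -0.29 in Puberty. The count over all libraries depended on the scaling: 21 members were above with upper-quartile scaling and 11 in TPM, with 0 below in both. NDUFB3 of complex I was at 136, 202 and 176 TPM in Year 1 and at 88.4, 113 and 115 TPM in Puberty (1.17 ± 0.23, adjusted p = 0.0624). NDUFS7, also of complex I, was at 175, 203 and 215 TPM in Year 1 and at 149, 124 and 106 TPM in Puberty (1.08 ± 0.24, adjusted p = 0.0625), and both genes were apart in TPM too.

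In the glycolysis and hypoxia list 12 of 28 were above and 2 below, against 7 and 6 in TPM, and the median was 0.70 (without Year 1 replicate 1, 16 above, 3 below and 0.87). LDHA, which makes lactate, was at 202, 173 and 234 TPM in Year 1 and at 131, 117 and 154 TPM in Puberty (1.05 ± 0.18, adjusted p = 0.0624). GAPDH was at 3018, 3635 and 3799.9 TPM in Year 1, against 2034, 1805 and 1427 TPM in Puberty (1.44 ± 0.34, adjusted p = 0.0629). The glycolytic enzymes ALDOA, GPI, PGK1 and TPI1 were above as well, whereas the hypoxia gene ADM and ANKRD37 were the 2 members below. VEGFA, the vessel growth factor, overlapped at 79.0, 125 and 156 TPM in Year 1 and 74.2, 53.4 and 107 TPM in Puberty.

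Endothelial markers had 23 of 24 positive changes, 6 members above and 0 below, and a median of 0.97. In TPM, 3 were above and 1 below. Leaving out Year 1 replicate 1 gave 20 above, 1 below and a median of 1.32. The library medians were 0.01, 1.27 and 1.23 in Year 1 and 0.05, -0.21 and 0.19 in Puberty, so replicate 1 was at the Puberty level. PECAM1, an endothelial adhesion molecule, was at 61.4, 85.9 and 102 TPM in Year 1 and at 60.7, 48.4 and 67.6 TPM in Puberty. NOS3, the endothelial nitric oxide synthase, was at 11.9, 15.7 and 19.9 TPM in Year 1, against 9.18, 7.6 and 10.9 TPM in Puberty (1.26 ± 0.26, adjusted p = 0.0624), and ANGPT2, a destabilizer of vessels, had the only negative change, at 36.4, 3.58 and 5.93 TPM in Year 1 and 62.2, 56.3 and 40.4 TPM in Puberty.

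In the extracellular matrix list 6 of 44 were above and 2 below, and in TPM 2 and 7, with a median of 0.31 (without Year 1 replicate 1, 18 above, 11 below and 0.15). NID2, a basement membrane linker, was at 47.0, 224 and 141 TPM in Year 1 and at 39.4, 30.5 and 38.3 TPM in Puberty (2.45 ± 0.61, adjusted p = 0.0644). COL15A1, a collagen of the basement membrane zone, was at 52.7, 472 and 339 TPM in Year 1 and at 56.7, 52.7 and 27.4 TPM in Puberty. MMP2, a collagen-degrading protease, was below, at 272, 109 and 174 TPM in Year 1 against 317, 513 and 965 TPM in Puberty. COL1A1, the main fibrillar collagen, overlapped with a change of -0.03 ± 0.54.

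Of 26 hormone receptors, 4 were above and 8 below, against 0 and 11 in TPM, with a median of -0.41 (without Year 1 replicate 1, 6 above, 13 below and -0.81). GHR, the growth hormone receptor, was at 7.37, 4.70 and 5.41 TPM in Year 1, against 14.4, 19.4 and 15.6 TPM in Puberty (-1.09 ± 0.25, adjusted p = 0.0625). Its Year 1 libraries were close together and below every Puberty library. INSR, the insulin receptor, was at 21.3, 6.44 and 8.73 TPM in Year 1 and at 27.4, 30.4 and 41.2 TPM in Puberty. PGR, the nuclear progesterone receptor, was above, at 2.18, 4.74 and 9.87 TPM in Year 1 and 2.19, 1.91 and 1.56 TPM in Puberty (2.06 ± 0.49, adjusted p = 0.0628), with Year 1 replicate 1 level with Puberty replicate 1 in TPM.

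Several lists moved with 1 library. The interferon response list had 26 of 28 positive changes and a median of 1.21, yet 0 members were apart. Its library medians were -0.45, 2.58 and -0.04 in Year 1 and -0.28, 0.46 and -0.19 in Puberty, and the list median was -0.27 without Year 1 replicate 2. Leaving out Year 1 replicate 1 gave 4 above, 0 below and a median of 1.66. CXCL10, an interferon-induced chemokine, was at 1.13, 377 and 1.72 TPM in Year 1 and at 2.22, 4.73 and 5.86 TPM in Puberty (5.48 ± 1.86, adjusted p = 0.0906). Lymphocyte markers were high in the same library, with medians of -0.71, 2.09 and -0.43 in Year 1 and -0.48, 0.13 and 0.21 in Puberty. The lymphocyte list had 0 of 14 above and 1 below, with a median of 0.92, which was -0.47 without Year 1 replicate 2 and 1.4 without Year 1 replicate 1 (3 above, 1 below). CD3E, a T-cell receptor component, was highest in Year 1 replicate 3, with 1.30, 6.76 and 52.9 TPM in Year 1 and 1.62, 3.19 and 2.21 TPM in Puberty.

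Cell cycle genes were low in Year 1 replicates 2 and 3 and in Puberty replicate 3. The library medians were 0.67, -1.41 and -0.61 in Year 1 and 0.60, 0.54 and -1.17 in Puberty, 0 of 30 members were apart, and the list median was -0.31. It was -1.15 without Year 1 replicate 1, with 0 above and 5 below, and 0.05 without Year 1 replicate 2. Macrophage markers overlapped in 17 of 18 members (2 above and 4 below without Year 1 replicate 1, with a median of -0.27 against -0.53 over all libraries). MRC1, the mannose receptor, was the exception, at 7.76, 6.77 and 5.94 TPM in Year 1 and 12.5, 12.6 and 17.0 TPM in Puberty (-0.59 ± 0.17, adjusted p = 0.0714). Smooth muscle had 3 of 20 above and 1 below (2 and 2 in TPM) and a median of 0.34, against 7 above, 4 below and -0.18 without Year 1 replicate 1. TPM2, a tropomyosin, was at 801, 640 and 892 TPM in Year 1, against 554, 393 and 483 TPM in Puberty (1.06 ± 0.22, adjusted p = 0.0624).

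Of 14 surface epithelium markers 5 were below and 0 above (8 and 0 in TPM, 11 and 1 without Year 1 replicate 1). The median change was -1.24, and -2.92 without Year 1 replicate 1. Library medians were -0.40, -1.92 and -1.69 in Year 1 and 0.04, -0.26 and 0.05 in Puberty. Summed levels were 79.8, 87.8 and 73.2 TPM in Year 1 and 93.5, 104 and 151 TPM in Puberty. KRT8, an epithelial keratin, was at 14.5, 0.78 and 3.99 TPM in Year 1 and at 33.2, 44.3 and 24.3 TPM in Puberty. KRT18 had 0, 1 and 0 counts in Year 1 and 20, 14 and 3 counts in Puberty. Of 19 markers of ciliated oviduct 9 were below and 0 above (11 and 0 in TPM, 13 and 0 without Year 1 replicate 1). Their median change was -1.30, and -2.24 without Year 1 replicate 1. Library medians were -0.60, -2.23 and -1.25 in Year 1 and 0.02, 0.26 and -0.28 in Puberty. Summed levels were 51.6, 33.0 and 54.1 TPM in Year 1 and 59.4, 61.1 and 75.9 TPM in Puberty. DNAH11, a ciliary dynein, was at 0.08, 0.03 and 0.21 TPM in Year 1 and at 0.41, 0.63 and 0.47 TPM in Puberty, and FOXJ1, which defines ciliated cells, was at most 0.19 TPM in all 6 libraries. The part of such tissue in the results was not tested.

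Of the remaining lists, nerve and glia had 3 of 14 above and 3 below (1 and 5 in TPM, 5 and 7 without Year 1 replicate 1), and its marker MBP was at 1.70, 0.27 and 0.22 TPM in Year 1 and at 5.20, 3.87 and 9.96 TPM in Puberty. Adipocyte markers had 1 of 9 above and 2 below (0 and 6 in TPM, 1 and 7 without Year 1 replicate 1). The lipase PNPLA2 was at 81.7, 89.9 and 97.5 TPM in Year 1 and at 63.6, 61.4 and 86.1 TPM in Puberty. Skeletal muscle markers had 1 of 6 tested members above and 2 below (3 and 2 without Year 1 replicate 1). All 13 with deposited levels summed to 5.5, 18.6 and 17.5 TPM in Year 1 and 5.5, 5.9 and 3.8 TPM in Puberty. Titin (TTN) was at 0.02, 0.01 and 0.01 TPM in Year 1 and 0.05, 0.08 and 0.12 TPM in Puberty. Erythrocyte genes had 1 of 5 tested members below, KEL (2 above and 1 below without Year 1 replicate 1). KEL had 3, 0 and 1 counts in Year 1 and 4, 20 and 11 counts in Puberty. All 10 erythrocyte genes with deposited levels summed to 182, 973 and 254 TPM in Year 1 and 244, 187 and 254 TPM in Puberty. Erythrocyte transcripts were thus highest in Year 1 replicate 2. Median changes were -0.64 for nerve and glia, -0.99 for adipocyte, -0.04 for skeletal muscle and 0.64 for erythrocyte genes. Without Year 1 replicate 1 these medians were -0.94, -1.51, 0.42 and 1.12.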

How the data were processed

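Per the submitters' processing notes, mRNA reads were handled with Bowtie2 2.3.4.3, RSEM 1.3.1 and DESeq2 1.4.5, with Sscrofa11.1 as the genome build. The authors deposited RSEM expected counts, TPM, log2 fold changes and q-values for 18753 genes. A further 24 columns of per-library values (FPKM and normalized counts) were not used, and the small RNA libraries were not analysed here. Gene positions come from RefSeq (Sscrofa11.1).

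Expected counts were rounded, genes kept by filterByExpr (minimum count 10), scaled with TMM and tested with edgeR 4.0.16 (R 4.3.3), all 12 mRNA libraries in 1 fit, with Benjamini-Hochberg adjustment and a threshold of 0.05. Non-overlap was read from TMM-scaled log2 CPM (prior count 2). TPM was not tested. Scripts were tested on simulated counts.

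The lists (26, with 567 of 597 symbols in the table) and the genes were chosen with earlier results of these data known. Named were all called genes, the 8 largest changes each way among non-overlapping genes with an SD at Year 1 of at most 0.5 (mean log2 CPM at least 3), the same above 0.5, the lowest p in each list (2 in 11 core lists) and 16 fixed genes. A few of these genes are not reported here; they stay in the counts and medians.

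Within a group no pair of libraries agreed within sampling noise (chi-square per degree of freedom at least 36.5). The precision of a level rests on its counts, and the p-values on the spread between sows and fragments, pooled over 4 stages.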

Additional observations from a re-analysis of the deposited data

How the results depend on the processing

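The 4 calls were the same in number under RLE scaling, upper-quartile scaling, no filter on low counts and a minimum count of 50 (1 higher, 3 lower). DESeq2 1.42.0 gave 1889 higher and 1370 lower, limma voom with quality weights (limma 3.58.1) 4603 and 4749, and leaving out both Year 1 replicate 1 and Pregnancy replicate 3 gave 4029 and 4233. A fit of only Year 1 and Puberty gave 0 and 0 at 3610 unadjusted p under 0.05, and a minimum fold of 2 gave 0 and 0 at 1326. A fit of only these stages without Year 1 replicate 1, chosen after seeing the data, gave 3266 and 3074. Leaving out 1 library in turn gave 0 to 2970 higher and 0 to 3189 lower, the most without Year 1 replicate 1. The cause was not tested.

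The count of non-overlapping genes, 4897, ranged from 5366 to 10579 when 1 library was left out, where fewer libraries are compared. Deviations of same-numbered libraries from their group means correlated at 0.27, -0.15 and 0.29, and those of other-numbered libraries at -0.36 to 0.29. With 3 libraries centred in each group, these values cannot show whether replicate numbers pair the samples. With a replicate block the counts were 0 and 0 (4670 unadjusted p under 0.05), and 0 and 0 with the block and only both stages fitted (2614).

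Of 80 named genes 5 changed sign in at least 1 setting. CYP17A1 was at -3.33 with limma voom, -0.26 with the replicate block, -0.95 with the block and only both stages fitted, -3.06 without both doubted libraries and -3.07 in the added fit; leaving out 1 library gave -3.05 to 1.43. For CYP19A3 these were -3.75, -0.38, -0.72, -5.30 and -5.31, and -5.28 to 4.04. For INHA they were -1.66, -0.13, -0.64, -2.53 and -2.54, and -2.51 to 1.65. Leaving out 1 library gave -1.75 to 0.07 for LHCGR (-1.77 without both doubted libraries) and -1.14 to 6.07 for CXCL10. Low counts limit the germline genes. In Year 1 replicate 2, 17 of 27 oocyte genes had a count of 0, so differences among them there were not detectable. That library held 15633303 counts, against 15453388 in Year 1 replicate 1, where 0 oocyte genes had a count of 0. The cause was not tested.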
